A study of Mus musculus with 195 samples.

Results

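Neural stem cells (NSC) were compared with embryonic stem cells of the same line (ESC-FCS) in the number of transcript molecules counted for each gene. The comparison took the 41 NSC cells and the 33 ESC-FCS cells that are columns of the table of genes, 74 of the 107 cells in that table and of 195 single cells and pools in the series. Both populations came from the 46C mouse line, E14tg2a cells that carry a GFP reporter in the Sox1 locus. ESC-FCS cells grew on gelatin in GMEM with fetal bovine serum and LIF. NSC cells had been taken through monolayer differentiation, sorted for GFP, and kept on laminin in serum-free N2 and B27 medium with EGF and bFGF until GFP was lost and Nestin was uniform. Small cells with the DNA content of G0/G1 were sorted from each culture, and each cell was lysed with ERCC spike-in RNA and sequenced at its polyadenylation sites (BATSeq), so that every count is a molecule identified by its own barcode and does not scale with transcript length. No separate cultures are named for either population. Each was split into 2 library batches, and medium, batch and cell type cannot be told apart. Each population was therefore taken as 1 sample, and no test over cells was made.

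Embryonic stem cells hold pluripotency through a network of transcription factors, among them Nanog, Esrrb, Klf2, Sall4 and Sox2, that is kept active by LIF. Neural stem cells in EGF and bFGF divide symmetrically, resemble radial glia, and express the fatty acid binding protein Fabp7, the intermediate filaments Nestin and vimentin and the bHLH factors Olig1 and Olig2. Sox2 belongs to both states.

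The 3′ ends of 8 called genes are shown, 4 for each direction, as examples of the gene groups described, because the counts were made at these sites. Each is the last 30 bases of the GENCODE M21 transcript (GRCm38) that ends within 10 nucleotides of the most used site of the gene, in the sense of the transcript, with the polyadenylation hexamer AATAAA in capitals. Fabp7 to Hmgcs1 were higher in NSC, and Nanog to Rps24 were lower.
Fabp7, chr10:57788421-57788450, plus strand: aaaccaaattgaAATAAAaaatacacacac
Olig2, chr16:91228648-91228677, plus strand: tgttgagattttaAATAAAatttaaagcaa
Ckb, chr12:111669361-111669390, minus strand: tgaaAATAAActagggtttggcctgcccta
Hmgcs1, chr13:119708053-119708082, plus strand: ataactttgaAATAAAgttttagacaaata
Nanog, chr6:122714604-122714633, plus strand: aaacaaAATAAAacactaattttaccttta
Esrrb, chr12:86521596-86521625, plus strand: ctgaaatctAATAAAtaaggaaaggtctgc
Hspb1, chr5:135889532-135889561, plus strand: caAATAAAagttgcaagctactgctcacca
Rps24, chr14:24495829-24495858, plus strand: gagaggacaAATAAActaaaaagctcctac
Among the 2466 genes with an annotated end this close to their most used site, 71.2% held AATAAA in these 30 bases and 14.6% held only ATTAAA. The site shown held 349 of the 376 Fabp7 molecules of NSC and 1569 of the 1605 Rps24 molecules of ESC-FCS.

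The ESC-FCS cells gave 226683 gene molecules in all, from 1079 to 14819 a cell (median 6375), and the NSC cells gave 151877, from 1234 to 9037 (median 3282). Levels are given as molecules per 10000 gene molecules, summed over the cells of a population, with an exact 95% Poisson interval that covers counting error only. A gene at 0 in a population is set at the floor of 3 molecules, which is a level of 0.132 in ESC-FCS and 0.198 in NSC. A fold given below as "at least" for such a gene is the ratio at this floor. It is not the lower end of a 95% interval, which could lie below it. The 3600 genes with at least 20 molecules in both populations together were compared. A gene was called when its levels differed at least 2-fold and every NSC batch lay on the same side of every ESC-FCS batch. All 4 batches used the same 24 cell barcodes beside their own batch barcode.

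Of these 3600 genes, 699 (19.4%) were called higher in NSC and 622 (17.3%) lower, and 2279 were not called. The genes called higher took 21.6% of the NSC molecules and 5.75% of the ESC-FCS molecules, and the genes called lower took 3.65% and 15.4%. At least 4-fold differences were reached by 282 of the genes called higher and by 302 of those called lower, and at least 16-fold ones by 58 and 52. Among the called genes, 18 had no molecule in ESC-FCS and 89 had none in NSC, where fewer molecules were counted. The median log2 ratio of NSC over ESC-FCS over all 3600 genes was 0.05. Most called genes rest on few molecules, with a median of 32 for those higher and 36 for those lower, and the counting interval of the ratio reached 1 for 54 and 100 of them. A gene missing from 1 population could enter only through the other, so that counts over gene groups below are descriptions of the genes with enough molecules.

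**Figure D1:**
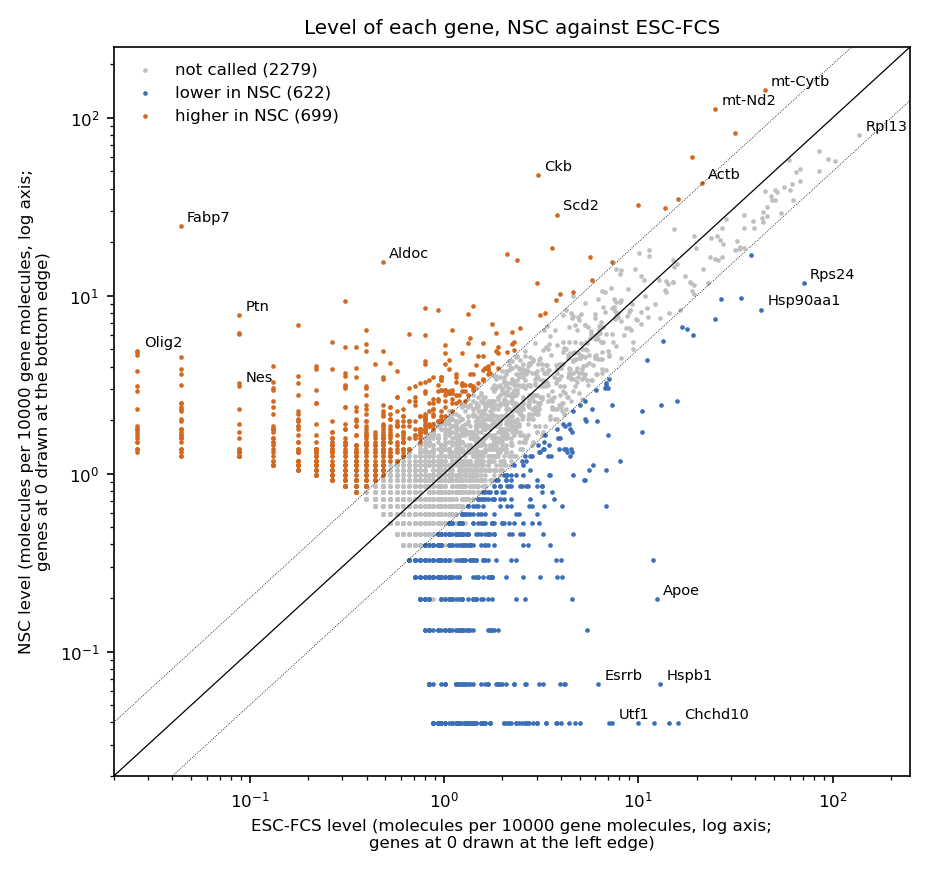
Level of each of the 3600 genes in ESC-FCS (x axis) and NSC (y axis), in molecules per 10000 gene molecules on log axes; the solid line marks equal levels, dotted lines 2-fold differences, and colours the 699 genes called higher, 622 called lower and 2279 not called. Fabp7, Ckb and Aldoc stand far above the line, Hspb1, Esrrb and Chchd10 far below it, and ribosomal protein genes such as Rpl13 lie just under it.

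The labels were first checked against markers. The 10 embryonic stem cell markers summed to 777 molecules in ESC-FCS and 1 in NSC. Per cell, they lay between 9.27 and 64.3 per 10000 in ESC-FCS (median 29.5) and between 0 and 2.84 in NSC. The 9 neural stem cell markers with a molecule summed to 39 in ESC-FCS and 745 in NSC, with 0 to 8.57 per 10000 in ESC-FCS cells and 14.2 to 174 in NSC cells (median 41.7). On both sums the cells of the populations did not overlap. Not every marker was informative, as Pou5f1 and Dppa5a had 4 molecules each in ESC-FCS and 0 in NSC, and Pax6 also had 4 and 0. Reads with more than 1 alignment had been removed by the authors, which can lower genes with near-identical copies. Whether this affected any of these markers was not tested. Markers of several other cell types were scarce, with 6 and 4 molecules for primitive endoderm in ESC-FCS and NSC, 9 and 1 for trophectoderm, 2 and 2 for mesoderm, and 0 and 2 for fibroblasts. The oligodendrocyte list gave 8 and 24 molecules, of which Cnp, an enzyme of myelin membranes, made up 3 and 18 while Mbp had 3 and 0 and Mog 2 and 1. In the neuron list, Map2 had 6 and 59 molecules and Stmn2 100 and 0, whereas Dcx had 0 and 2 and Tubb3 9 and 5. The astrocyte list gave 64 and 244 molecules, all from Aldoc (11 and 235, called higher) and Gja1 (53 and 9, called lower), and Gfap had none.

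Transcription factors of the neural lineage were higher in NSC almost throughout. Of 37 on the list, 15 had enough molecules, 14 were called higher and none lower, with a median log2 ratio of 4.64, and 11 of them still passed 2-fold when levels were scaled to spike-ins. Olig2, which directs oligodendrocyte and motor neuron fates and sustains progenitor division, had 0 molecules in 33 ESC-FCS cells and 74 in 27 of the 41 NSC cells. Its level in NSC was 4.87 (3.83 to 6.12), at least 36.8-fold higher, with 4.76 and 4.99 in the NSC batches. Its relative Olig1 had 2 and 93 molecules, a ratio of 69.4 (18.7 to 582). The zinc finger repressor Zeb1 had 2 and 94 molecules (ratio 70.1, 18.9 to 588), in 33 NSC cells. Nuclear factor I members, which act in the switch to gliogenesis, were among them: Nfia with 0 and 57 molecules, at least 28.4-fold, and Nfib with 1 and 38 (ratio 56.7, 9.58 to 2298). Sox6 had 1 and 35 molecules, Rfx4 1 and 31, Tcf4 6 and 83, Tcf12 3 and 50, Sox4 4 and 42, Sox3 3 and 26, Sox11 5 and 16, and Hes6 9 and 18. Tead2, a partner of YAP, was called at 18 and 29 molecules (log2 ratio 1.27), and its direction turned with spike-in scaling (log2 ratio -0.08). Tead1 was not called, with 19 and 13. The other 19 members with a molecule, among them Hes5 (1 and 11), Sox9 (0 and 10) and Nr2f1 (0 and 11), had at most 19 molecules.

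Fabp7, a gene of radial glia, had the largest single ratio. The gene, at chr10:57784881-57788450, had 1 molecule in ESC-FCS and 376 in NSC. It was found in 40 of 41 NSC cells, from 0 to 121 per 10000 with a median of 16.9, while the single ESC-FCS cell with it reached 4.28. The ratio was 561 (100.1 to 22224), and the level was 24.2 and 25.4 in the NSC batches. It rests on 1 ESC-FCS molecule. Without ESC-FCS batch 1, which held it, the floor stood in for ESC-FCS and the log2 ratio was 6.31 in place of 9.13, and with a further set of ESC-FCS cells, which had no Fabp7 molecule, it was 7.52. Ckb, the brain creatine kinase, had 69 and 721 molecules and levels of 3.04 (2.37 to 3.85) and 47.5 (44.1 to 51.1), a 15.6-fold difference (12.2 to 20.3). Its NSC cells ran from 10.4 to 83.0 with a median of 43.0, and 40 of 41 lay above the highest ESC-FCS cell at 17.2. Nes, the gene of Nestin, had 2 and 47 molecules and was seen in 30 NSC cells (ratio 35.1, 9.18 to 298). Vimentin (Vim) was 10.8-fold higher (6.56 to 18.8), and Dbi, an acyl-CoA binding protein, 8.05-fold (5.90 to 11.2). Of 34 genes on this list, 19 had enough molecules, 17 were called higher and none lower, with a median log2 ratio of 3.90. Cnn3 (79 and 81 molecules) and Marcksl1 (67 and 82) were not called, and Msi2, called at 12 and 19, turned direction with spike-in scaling.

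Extracellular matrix and membrane genes of this list followed the same direction. Tenascin C (Tnc) and brevican (Bcan), matrix molecules of the neural stem cell niche, had 0 molecules in ESC-FCS and 73 and 71 in NSC, at least 36.3-fold and 35.3-fold higher. Neurocan (Ncan) had 1 and 55, the receptor phosphatase Ptprz1 3 and 61, the membrane protein Gpm6b 1 and 59, and Gpm6a 0 and 28. The RNA-binding protein quaking (Qk) was 16.1-fold higher (8.13 to 36.2), Marcks had 32 and 133 molecules, and the glutamate transporter Slc1a3 was 6.14-fold higher (2.91 to 14.5). Tnc was uneven among cells, from 0 to 62.5 per 10000 with a median of 2.42, and 16 NSC cells had no Tnc molecule.

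Other gene groups held the rest of the 15 largest ratios in this direction. Genes at 0 in ESC-FCS were ranked by the ratio at the floor of 3 molecules, so that Olig2, Tnc and Bcan stood below genes with 1 ESC-FCS molecule. Ptn, the growth factor pleiotrophin that binds Ptprz1, had 2 and 118 molecules (ratio 88.1, 23.8 to 736) in 32 NSC cells. Its close relative midkine (Mdk) went the other way, with 73 and 1 molecules. The IGF-binding protein Igfbp4 had 1 and 48, the membrane protein Tmem176b 1 and 38, the acyl-CoA synthetase Acsbg1 1 and 36, and Bnip2 1 and 30. Vash1 (1 and 69) and Pogk (1 and 34) were uneven between the NSC batches, at 7.02 and 1.80 for Vash1 and 3.38 and 0.97 for Pogk. Of the Vash1 molecules 98.6% lay past the annotated gene end, mostly at a site 3590 bases beyond it, and were given to Vash1 because the authors assigned sites downstream of a gene to that gene. More than 50% of the molecules were of this class for 47 of the called genes.

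**Figure D2:**
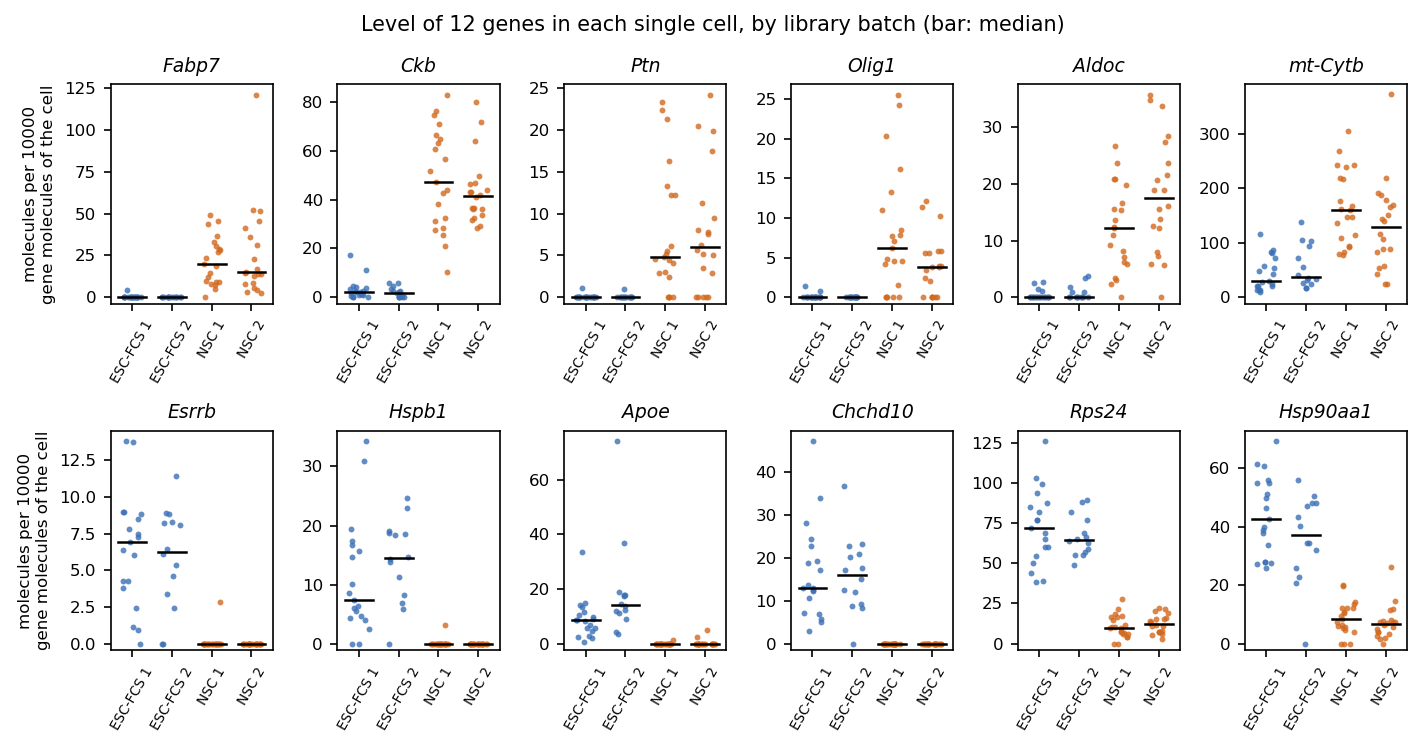
Level of 12 genes in each single cell, in molecules per 10000 gene molecules of that cell, by population and library batch, with a bar at the median of each batch. The upper row holds genes higher in NSC and the lower row genes lower in NSC; the cells of the 2 batches of a population overlap for each gene, and Rps24 separates all ESC-FCS cells from all NSC cells.

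The pluripotency transcription factors were at or near 0 in NSC, Sox2 excepted. Of 20 on the list, 11 had enough molecules and all 11 were called lower, with a median log2 ratio of -4.28. Summed over the list, the ESC-FCS cells ran from 10.3 to 72.5 per 10000 (median 36.1) and the NSC cells from 0 to 12.2 (median 0). Nanog, at chr6:122707489-122714633, had 68 molecules in 21 ESC-FCS cells and 0 in 41 NSC cells, at least 15.2-fold higher in ESC-FCS, with levels of 2.99 and 3.01 in the ESC-FCS batches. The orphan receptor Esrrb had 141 and 1 molecules, in 30 and 1 cells, a 94.5-fold difference (16.7 to 3757). Without NSC batch 1, which held the NSC molecule, the floor stood in for NSC and the log2 ratio of Esrrb was -3.90 in place of -6.56. Klf2 had 95 and 1 (63.6-fold, 11.2 to 2540), Sall4 94 and 1 (63.0-fold, 11.0 to 2514), and the chromatin factor Utf1 166 and 0 (at least 37.1-fold). Tfcp2l1 had 62 and 0, Klf5 35 and 1, Mybl2 29 and 1, Zfp42 26 and 0, and Nr0b1 25 and 0. Sox2 was 2.05-fold lower in NSC (1.17 to 3.78), with 52 molecules in 21 ESC-FCS cells and 17 in 12 NSC cells. The other 9 members, such as Klf4 (6 and 1), Tbx3 (7 and 0) and Prdm14 (7 and 1), had at most 13 molecules.

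Signals and effectors of the pluripotent state were lower too, with 18 of the 19 entered of 26 called, a median log2 ratio of -3.12 and none higher. Summed over the list, ESC-FCS had 1831 molecules and NSC 134, so that the group was not absent from NSC. Its sum ran from 34.4 to 180 per 10000 in ESC-FCS cells (median 80.1) and from 0 to 24.3 in NSC cells (median 8.85). Not every entered member is named here. Tdgf1, the co-receptor of Nodal, had 114 molecules in ESC-FCS and 0 in NSC, and Lefty1, its inhibitor, 107 and 0. Threonine dehydrogenase (Tdh), on which mouse embryonic stem cells depend for one-carbon units, had 160 and 0, at least 35.7-fold. The RNA-binding L1td1 had 68 and 0, Dppa4 53 and 0, the secreted protein Spp1 46 and 0, Fbxo15 39 and 0, Ooep 35 and 0, Morc1 32 and 0, Dppa2 31 and 0, Gdf3 27 and 0, Fgf4 26 and 0 and Eras 22 and 0. Mkrn1 was 10.3-fold lower in NSC (5.46 to 21.9), with 154 and 10. Alpl, the alkaline phosphatase of stem cell staining, was called at 25 and 8, and Cd9 was not called at 21 and 9. Lin28a, which blocks let-7 maturation, had 59 and 0 molecules, with Trim71 at 45 and 1 and Igf2bp1 at 46 and 0. Hmga2, a let-7 target, was higher in NSC with 4 and 23 (8.58-fold, 2.93 to 34.1). Igf2bp3 was not called at 18 and 13.

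Several of the largest ratios in this direction belonged to genes not yet described. The small heat shock protein gene Hspb1, at chr5:135887919-135889563, had 294 molecules in 30 ESC-FCS cells and 1 molecule in NSC, a 197-fold difference (35.1 to 7806). Without NSC batch 1, which held that molecule, the floor stood in for NSC and the log2 ratio of Hspb1 was -4.96 in place of -7.62. Chchd10, a protein of the mitochondrial intermembrane space, had 364 and 0 (at least 81.3-fold) and was present in 32 of 33 ESC-FCS cells. The interferon-induced Ifitm1 had 326 and 0 (at least 72.8-fold). Rps4l, a copy of a ribosomal protein gene, had 272 and 0. Fabp3, the fatty acid binding protein of muscle, had 226 and 0 (at least 50.5-fold), opposite to Fabp7. Apolipoprotein E (Apoe) had 283 and 3 (63.2-fold, 21.4 to 308), the glucose transporter Slc2a3 124 and 2 (41.5-fold, 11.3 to 347), the noncoding RNA Lncenc1 90 and 1, the DNA repair protein Hmces 70 and 1, the LIM protein Csrp2 60 and 1, and the RNA-binding protein Rbpms 59 and 1. None of the 41 NSC cells held more than 1 molecule of any of these genes, and the highest single NSC cell reached 5.12 per 10000, for Apoe.

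Chromatin and growth control genes were mostly lower in NSC. The de novo DNA methyltransferase Dnmt3b (49 and 0) and the methyltransferase regulator Dnmt3l (76 and 0) were called. So were the maintenance factors Dnmt1 (48 and 15) and Uhrf1 (35 and 7) and the demethylase Tet1 (43 and 2). That made 5 called of 7 entered of 11. Dnmt3a (27 and 8) and Mbd3 (50 and 60) were not. Of the Polycomb genes, 5 of 6 entered of 12 were called lower: Mtf2 (38 and 1), Cbx7 (26 and 2), Eed (53 and 5), Phc1 (83 and 11) and Jarid2 (82 and 12). Ezh2, the methyltransferase itself, was not called at 17 and 7. Of imprinted genes, Meg3 (32 and 0), Phlda2 (28 and 0) and Cdkn1c (32 and 3) were lower and Peg10 (71 and 38) was not called, 4 entered of 19. Cdkn1c differed between the ESC-FCS batches, at 2.15 and 0.42.

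Genes of S phase and mitosis were lower in NSC although all cells had been sorted as G0/G1. Of 15 S phase genes, 13 had enough molecules and 12 were called, with a median log2 ratio of -1.70. Of 17 genes of G2 and M phase, 13 were entered and 11 called, with a median of -2.47. The replicative helicase subunit Mcm2 was 2.32-fold lower (1.66 to 3.29), ribonucleotide reductase Rrm2 5.69-fold (3.26 to 10.7) and Pcna 2.46-fold (1.55 to 4.04). Among mitotic genes, cyclin B1 (Ccnb1) had 43 and 1 molecules, Cdc20 73 and 7, and Ube2c 79 and 15. Top2a (50 and 18), Mki67 (30 and 11) and Rrm1 (28 and 14) were not called. The summed S phase genes ran from 13.8 to 76.5 per 10000 in ESC-FCS cells and from 0 to 60.6 in NSC cells, so that the cells overlapped. In G1, the D-type cyclins Ccnd2 (0 and 44, at least 21.9-fold) and Ccnd1 (17 and 32, 2.81-fold, 1.51 to 5.39) were higher, while cyclin E1 (Ccne1, 47 and 4), Cdk6 (19 and 1) and Cdkn1c were lower, and Cdk4 (218 and 215) and Ccnd3 (36 and 20) were not called. Myc had 0 and 27 molecules (at least 13.4-fold), and its paralogue Mycn 14 and 0. Of the 10 nucleolar and Myc genes entered of 14, only Myc was called, and Npm1 had levels of 59.6 and 57.7.

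**Figure D3:**
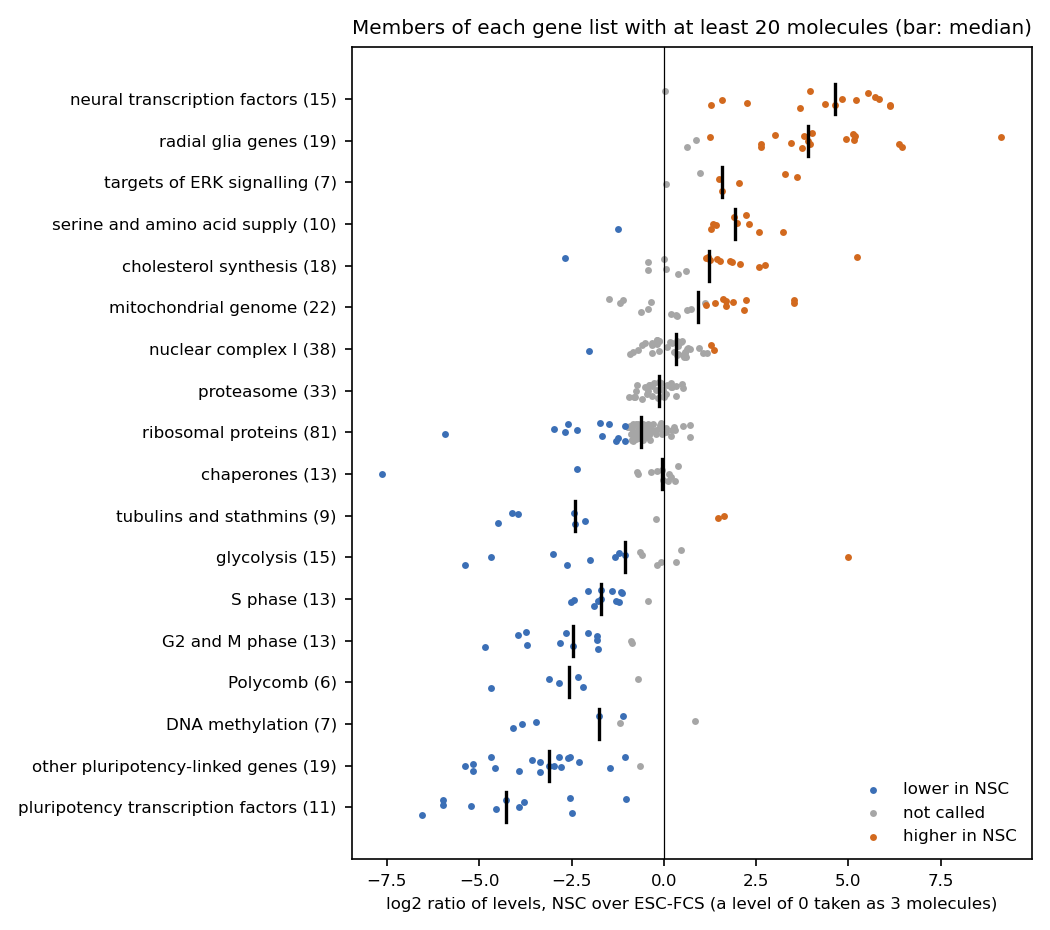
Log2 ratio of levels (NSC over ESC-FCS) of the members of 18 gene lists with at least 20 molecules, with the number entered in brackets, a bar at the list's median and a vertical line at 0; a level of 0 is taken as 3 molecules. Neural transcription factors and radial glia genes lie to the right, pluripotency, cell cycle, Polycomb and DNA methylation genes to the left, and proteasome and nuclear complex I genes around 0.

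The genes of cell surface, receptors and cytoskeleton differed member by member. E-cadherin (Cdh1) had 60 and 0 molecules and Epcam 32 and 1. N-cadherin (Cdh2) had 1 and 9, too few to enter. Fibronectin (Fn1) had 76 and 0, at least 17.0-fold lower in NSC, while the laminin receptor subunits Itgb1 (22 and 53, 3.60-fold, 2.15 to 6.21) and Itga6 (10 and 20) were higher. Receptors of the growth factors in the NSC medium were higher, Egfr with 2 and 26 molecules (ratio 19.4, 4.86 to 169) and Fgfr1 with 2 and 19 (ratio 14.2, 3.42 to 126). Both LIF receptor subunits had too few molecules, Lifr with 7 and 0 and Il6st with 11 and 2. Ptch1, a receptor of hedgehog, was lower at 36 and 12 molecules, and its direction turned when reads were counted in place of molecules. In the Notch list, 2 of 15 entered, Jag1 higher (7 and 15) and the nuclear mediator Rbpj lower (45 and 8), and the call of Jag1 was lost in each of the 4 other scalings. Among BMP-linked genes, Smad5 was higher (0 and 20), Id1 lower (17 and 5, interval of the ratio including 1), and Id3 not called (47 and 37). Tubulins split, with Tuba1b (297 and 37), Tuba1c (92 and 4), Tuba4a (26 and 1) and Tubb4b (127 and 16) lower and Tuba1a (51 and 95) and Tubb2b (34 and 70) higher. Stmn2, a microtubule regulator used as a neuron marker, had 100 molecules in 26 ESC-FCS cells and 0 in NSC, and Stmn1 had 33 and 5. The actin sequestering thymosins diverged, with Tmsb4x 3.22-fold higher (2.74 to 3.78) and Tmsb10 6.77-fold lower (4.17 to 11.7). Of the tubulins higher in NSC, both no longer passed 2-fold with spike-in scaling.

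Metabolic genes differed by pathway. In glycolysis, 8 of 15 entered of 19 were lower and 1 higher. Aldolase C (Aldoc), the brain isoform, had 11 and 235 molecules, a 31.9-fold difference (17.5 to 64.8), and 36 of 41 NSC cells lay above every ESC-FCS cell. Aldolase A (Aldoa) was 2.51-fold lower (1.72 to 3.75), Gapdh 6.17-fold (4.42 to 8.82) and Ldhb 2.07-fold (1.51 to 2.89), and the glucose transporter Slc2a1 had 38 and 1 molecules. Pkm (489 and 216) and Ldha (233 and 195) were not called. Gapdh and other glycolytic genes have many processed copies, and unique alignment can lower them in both populations.

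Sterol synthesis was higher in NSC relative to all gene molecules. Of 22 genes, 18 were entered, 11 were called higher and 1 lower, with a median log2 ratio of 1.23, but with spike-in scaling the median turned to -0.12 and 2 remained called higher with 5 called lower. Hmgcs1, which makes HMG-CoA, had 54 and 241 molecules and levels of 2.38 (1.79 to 3.11) and 15.9 (13.9 to 18.0), 6.66-fold higher (4.94 to 9.12). NSC cells ran from 0 to 58.1 with a median of 12.0, and ESC-FCS cells from 0 to 8.29 with a median of 1.85. Nsdhl had 1 and 25 molecules, Cyp51 18 and 50, Msmo1 23 and 44, Lss 11 and 20, Dhcr7 7 and 17, and Hsd17b7 4 and 16. Fdps (32 and 47), Sqle (17 and 27) and the regulator Srebf2 (22 and 34) turned direction with spike-in scaling. Ebp was lower at 19 and 2. Insig1 was not called (48 and 49).

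The promoter of Hmgcs1 is shown as the member of this group with the most molecules. It is the RefSeq window of 300 bases around the start (GRCm38.p6, chr13:119690101-119690400, plus strand), with the match to TCACNCCAC, searched on both strands, in capitals.
Hmgcs1: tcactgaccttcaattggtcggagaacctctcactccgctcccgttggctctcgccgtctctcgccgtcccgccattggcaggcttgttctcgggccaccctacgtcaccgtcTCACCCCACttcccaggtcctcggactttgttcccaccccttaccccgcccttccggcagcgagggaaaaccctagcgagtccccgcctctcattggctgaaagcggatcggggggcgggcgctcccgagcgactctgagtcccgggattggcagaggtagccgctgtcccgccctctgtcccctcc
This motif is a binding sequence of SREBP, the regulator of sterol genes. It was found in 1 of the 16 list members with a promoter window and in 1.44% of all 27025 genes with one.

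Fatty acid genes, a list made after the values were seen, held large differences in both directions. Scd2, the main desaturase of brain, had 86 and 434 molecules and was 7.53-fold higher (5.96 to 9.61), with 36 of 41 NSC cells above every ESC-FCS cell. Fads1 was 9.15-fold higher (5.27 to 17.0), and Acadl had 1 and 24 molecules, while Apoe, Apoc1 (27 and 0) and Fabp3 were lower. Fasn (63 and 63) and Acly (96 and 127) were not called. Genes of serine synthesis and amino acid supply were higher for 9 of 10 entered of 14 (median log2 ratio 1.93, and 0.59 with spike-in scaling, where 2 passed 2-fold). Phgdh, the first enzyme of serine synthesis, was 9.40-fold higher (4.79 to 20.6), Shmt2 3.92-fold (2.70 to 5.79) and the stress factor Atf4 4.67-fold (2.89 to 7.83). Psph (14 and 35), Chac1 (7 and 23), Slc3a2 (56 and 100) and Slc7a5 (6 and 24) were also higher. Psat1 (85 and 144) and Asns (75 and 122) were called but turned direction with spike-in scaling, and the cytosolic Shmt1 was lower (42 and 12). The letters TGATGNAAT, bound by ATF4 with C/EBP partners, were found for none of the 13 list members with a promoter window. They were found for 1.08% of all 27025 genes with one. The metallothioneins Mt1 (405 and 99, 2.74-fold lower, 2.20 to 3.45) and Mt2 (270 and 5, 36.2-fold, 15.3 to 112) were lower, as was the ferritin light chain Ftl1 (29 and 5), with Fth1 not called (291 and 185).

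The most abundant messages encoded ribosomal proteins and proteins of the mitochondrial genome. In ESC-FCS the 5 genes with most molecules were Rpl13, Rpsa, Rps20, Rpl13a and Rpl8, at levels from 85.0 to 136. In NSC they were mt-Cytb, mt-Nd2, mt-Nd4, Rpl13 and Rpl8, at levels from 65.3 to 143. None of the 81 entered genes named as ribosomal proteins was called higher and 12 were called lower, with a median log2 ratio of -0.62. Over all 3600 genes, 19.4% were called higher and 17.3% lower. With the further set of ESC-FCS cells, the log2 ratio was -0.07 for Rpl13 (in place of -0.77) and -0.49 for Rpsa (-0.85). It was -0.18 for Rpl8 (-0.38), -0.88 for Rps20 (-0.69) and -0.74 for Rpl13a (-0.78). Their sum had a median of 1979 per 10000 in ESC-FCS cells (1335 to 2776) and 1232 in NSC cells (570 to 1997). Rps4l, at 272 and 0, had the largest ratio among them. Rps24 had 1605 and 178 molecules and levels of 70.8 (67.4 to 74.4) and 11.7 (10.1 to 13.6), a 6.04-fold difference (5.17 to 7.09). ESC-FCS cells ran from 38.3 to 126 with a median of 66.5 and NSC cells from 0 to 27.9 with a median of 10.8, and it was the 1 gene of 3600 in which every ESC-FCS cell lay above every NSC cell. No gene separated the cells in the other direction. Separation needs a molecule in every cell of the higher population, which genes with few molecules cannot have. Only 37 genes had a molecule in all 74 cells. Rplp1 (560 and 113) was 3.32-fold lower (2.71 to 4.10).

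RNAs of the mitochondrial genome, transfer and ribosomal RNAs included, were mostly higher in NSC relative to all gene molecules. Of 22 entered, 10 were called higher and none lower, against 19.4% and 17.3% of all 3600 genes. Their median log2 ratio of 0.92 turned to -0.43 with spike-in scaling, where 1 was called higher and 4 lower. The study's methods describe removing mitochondrial reads, because these RNAs gain poly(A) tails during degradation. mt-Cytb had 1013 and 2169 molecules and was 3.20-fold higher (2.96 to 3.45), with NSC cells from 23.4 to 373 (median 147) and ESC-FCS cells from 10.4 to 139 (median 34.4). mt-Nd2 was 4.52-fold higher (4.11 to 4.98), mt-Nd1 3.19-fold (2.84 to 3.59) and mt-Nd4 2.62-fold (2.38 to 2.87). The ribosomal RNAs mt-Rnr1 (14 and 12) and mt-Rnr2 (136 and 114) were not called. The share of the entered mitochondrial genes differed between the NSC batches, at 6.06% and 3.96%, against 2.06% and 1.77% in ESC-FCS. Most molecules listed under mt-Co1, mt-Atp8, mt-Td and mt-Tm ended at sites from 6767 to 9976 bases past those genes, so that their names are uncertain. Subunits of complex I encoded in the nucleus showed no such difference, with 2 of 38 called higher and 1 lower and a median of 0.32. None of 33 proteasome genes was called.

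Among called genes, the 5 largest losses of level in NSC were those of Rps24, Hsp90aa1, Prdx1, Mif and Rplp1, and the 5 largest gains those of mt-Cytb, mt-Nd2, mt-Nd4, Ckb and mt-Nd1. The chaperone Hsp90aa1 had levels of 43.0 (40.3 to 45.8) and 8.36 (6.97 to 9.95), 5.14-fold lower (4.27 to 6.23), and 28 of 33 ESC-FCS cells lay above every NSC cell. Of 13 chaperone genes entered of 16, Hspb1 and Hsp90aa1 were called, both lower, where 17.3% of all 3600 genes were called lower. Hsp90ab1 (889 and 365), Hspe1 (312 and 164) and Hspd1 (120 and 104) were not. Peroxiredoxin Prdx1 was 3.48-fold lower (2.91 to 4.17) and the cytokine Mif 2.25-fold (1.95 to 2.60). These losses depended on the set of ESC-FCS cells. With the further set, the log2 ratio was -0.88 for Prdx1 (in place of -1.80), -0.93 for Rplp1 (-1.73) and 0.14 for Mif (-1.17). Hsp90aa1 stayed at -2.61 (-2.36) and Rps24 at -2.53 (-2.59).

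Genes that respond to growth factor signalling through ERK, listed after the values were seen, were higher in NSC for 5 of 7 entered of 14, with 2 of them past 2-fold after spike-in scaling. The phosphatase Dusp6 was 12.3-fold higher (6.13 to 27.9), the ETS factor Etv1 9.81-fold (4.40 to 25.7), and the inhibitors Spry2 (8 and 22) and Spred1 (8 and 16) were also called, with Etv5 (74 and 98) and Spry4 (13 and 9) not called. Immediate early genes included Egr1, with 4 and 104 molecules in 4 and 36 cells (ratio 38.8, 14.7 to 145), and Fos, with 3 molecules in 1 ESC-FCS cell and 46 in 24 NSC cells. Fos differed between the NSC batches, with 12 and 34 molecules. Junb (14 and 20) was called and turned direction with spike-in scaling, and Jund (103 and 114) and Ier2 (35 and 18) were not called. Among 39 Hox genes, 19 had a molecule and together they gave 6 and 67. Hoxb8 alone entered, with 1 and 27 in 21 NSC cells (ratio 40.3, 6.64 to 1650).

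**Figure D4:**
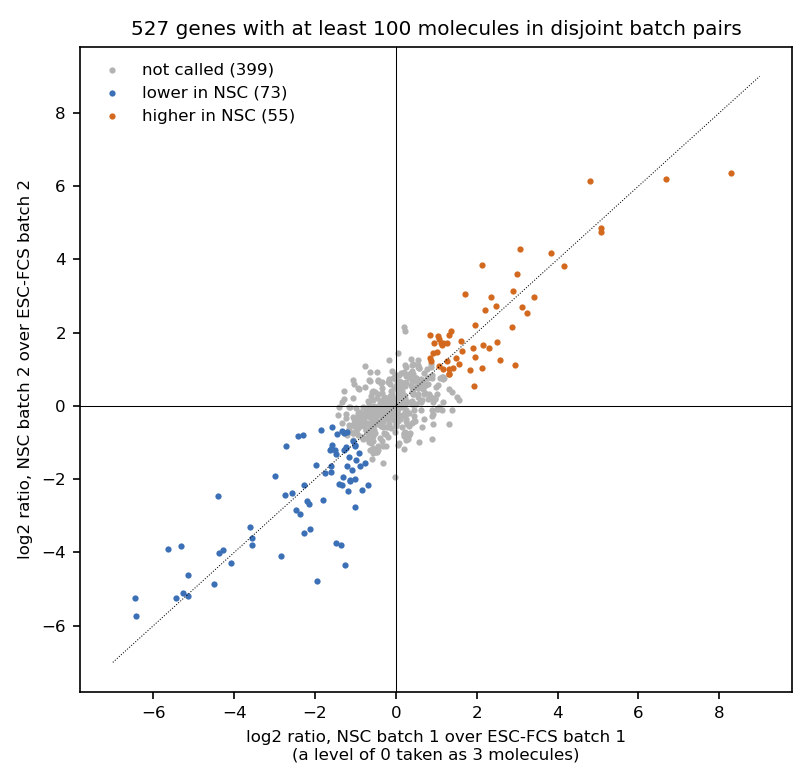
Log2 ratio of NSC batch 1 over ESC-FCS batch 1 (x axis) and of NSC batch 2 over ESC-FCS batch 2 (y axis) for the 527 genes with at least 100 molecules, coloured by call, with the dotted line marking equal ratios. The 128 called genes lie on the same side of 0 in both pairs because a call required it, and the genes not called crowd around 0.

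Most genes past 2-fold by pooled level, which holds the same batches, lay on the same side in each batch pair. Of the 752 genes at least 2-fold higher in NSC by pooled level, 732 to 739 were higher in each of the 4 batch pairs, and of the 663 at least 2-fold lower, 644 to 656 were lower. Over the 527 genes with at least 100 molecules, the log2 ratios of 2 batch pairs that share no cells had a Pearson r of 0.870 across genes (0.860 for the other such pairing), and over all 3600 genes one of 0.643. Genes are not independent replicates, and these points share the genes' abundance. Between the batches of 1 population, 22 (4.17%) of the 527 genes differed at least 2-fold in ESC-FCS and 43 (8.16%) in NSC, against 129 (24.5%) between the populations. Over all 3600 genes, 735 differed at least 2-fold between the ESC-FCS batches and 993 between the NSC batches, against 1415 between the populations.

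A further set of ESC-FCS cells, sequenced as additional single cells with batch barcodes of their own and reaching 1000 molecules in 42 of 48 cells, gave side-by-side values against the same NSC cells. With these cells in place of the ESC-FCS cells, 670 of the 699 genes called higher kept their direction and 524 were past 2-fold, and 586 of the 622 called lower kept it and 478 were past 2-fold. Olig2 was at 0 in both sets of ESC-FCS cells, Nanog at 3.00 and 4.57 and Rps24 at 70.8 and 67.8. For some genes the sets of ESC-FCS cells differed as much as ESC-FCS and NSC did. Actb was at 21.3 in ESC-FCS, 44.0 in the further set and 42.9 in NSC, and Mif at 37.9, 15.3 and 16.9. Lefty1 was at 4.72 and 1.34 and Klf5 at 1.54 and 7.35 in the ESC-FCS sets, against 0 and 0.07 in NSC.

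Relative to the spike-ins, fewer gene molecules were counted in NSC cells. ESC-FCS cells gave 7.53 to 43.1 gene molecules per ERCC molecule (median 24.6) and NSC cells 3.86 to 21.2 (median 9.54), and 26 of 33 ESC-FCS cells lay above the highest NSC cell. The pooled ratio was 2.53-fold lower in NSC, from 2.03 to 3.10 over the 4 batch pairs. Scaling to spike-ins moves every log2 ratio by -1.34, and then 197 genes were called higher in NSC and 2083 lower. The further set of ESC-FCS cells gave a median of 64.4 gene molecules per ERCC molecule, more than that of the ESC-FCS cells by a similar factor, so that RNA content and recovery of the spike-ins cannot be told apart here. The changes above are therefore shares of the gene molecules of a cell.

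**Figure D5:**
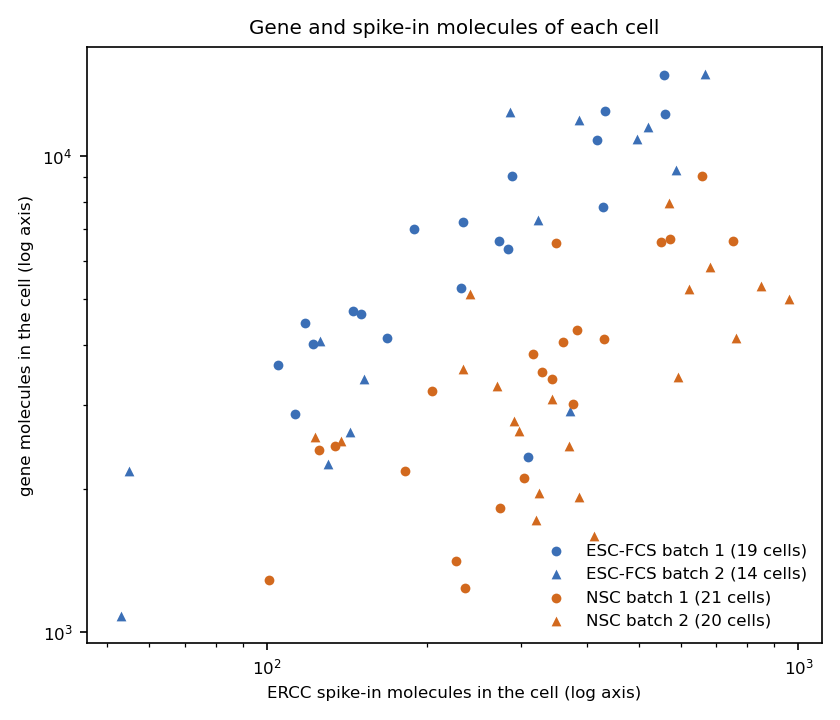
Gene molecules (y axis) against ERCC spike-in molecules (x axis) of each of the 74 cells on log axes, coloured by population with a marker for each batch. At like numbers of spike-in molecules the NSC cells hold fewer gene molecules than most ESC-FCS cells, in both batches.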

How the data were processed

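The authors sorted single cells into lysis buffer with ERCC spike-ins, primed reverse transcription with barcoded oligo-dT, aligned reads that end in a run of A to GRCm38 with GSNAP, removed reads without a unique alignment and sites followed by A-rich genome, joined neighbouring sites, and assigned sites within a gene or downstream of it to that gene. Per the labels, HTSeq and R 3.0.2 were used. The deposited values are counts of molecules (UMIs) per gene and cell, not normalized, and, per site and cell, counts of molecules and reads. Mitochondrial genes are listed in the table although the study's methods describe their removal. Of the 48 ESC-FCS and 48 NSC cells sequenced, 33 and 41 are in the table of genes, and 35 and 41 reached 1000 gene molecules in the counts per site.

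Counts were summed over the cells of a population and divided by the summed gene molecules. Poisson and Clopper-Pearson intervals (95%) cover counting error only. Cells are not replicates and no separate cultures are named, so each population was taken as 1 sample, no p-value was computed, and batches are nested in populations. Genes named are the 15 with the largest called ratio in each direction, the 5 with most molecules in each population, the 5 with the largest called differences of level in each direction, and members of gene lists. A few more were named after their values were seen. The comparison, the gene lists and the rules were chosen with earlier results of these data known, and the lists on fatty acid, ERK, immediate early and Hox genes after the values were seen. Of 19736 gene identifiers, 19321 matched a symbol in GENCODE M21. The calling steps were also run on simulated counts with known folds. No rate of missed or false calls in the real cells was taken from that run, so it does not measure the error of the calls above. Python 3.11.15 with pandas and scipy was used. The isoform table, ESC-2i cells and pools were not used here.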

Additional observations from a re-analysis of the deposited data

How the results depend on the processing

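The counts of genes called higher and lower in NSC (699 and 622) became 197 and 2083 with spike-in scaling, 1335 and 1144 with a minimum of 10 molecules, 190 and 194 with 50, 2231 and 1438 with 1, 282 and 302 at 4-fold, and 404 and 380 when each batch pair had to differ 2-fold. With the further ESC-FCS cells the count of genes called lower was 955. Leaving out 1 batch gave 458 to 641 higher, with 458 without NSC batch 1, and 346 to 680 lower, with 346 without ESC-FCS batch 1. Then 2452 to 2890 genes entered, and 325 to 544 of the 699 and 256 to 517 of the 622 were called again. With the further cells, 471 of the 699 and 417 of the 622 were called again. Equal weight for each cell, totals without mitochondrial and ribosomal protein genes, a median ratio set to 1, cells with at least 2000 molecules, all 48 cells, reads in place of molecules, no condition on batches and, added after the data were seen, a minimum on the mean level or leaving out downstream sites kept both counts within 1.5 times. The genes called changed more than the counts. Reads called the fewest of them again, 566 of the 699 and 488 of the 622, and equal weight called 602 and 561. Of the 40 called genes named by size, only Mif turned direction, with the further ESC-FCS cells (log2 ratio 0.14), and the cause was not tested. Sizes moved more, by over 1.5 times for 14 to 17 of these genes without 1 batch, for 28 with reads and for 23 with the further cells. Without NSC batch 1 only 33 of the 40 could be compared, and without NSC batch 2 only 36. Ratios against 1 molecule rest on the batch that held it. Of 187 other called list genes, 11 turned with spike-in scaling and 2 with reads (Ptch1 and Id1). With the further cells 179 of them could be compared, and 2 turned (Actb and Rps3a3). Without 1 batch, 143 to 158 could be compared. The spike-in ratio of 2.53 ran from 2.17 to 2.93 without 1 batch. No paired analysis was possible because the batches of the populations carry no shared cells or cultures and no test was made. Depth limits genes under 20 molecules, 13209 of the 16809 with a molecule.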
